A study of Mus musculus with 9 samples.

Results

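The genes described here are 32 that encode chaperones of the endoplasmic reticulum (ER), the sensors of the unfolded protein response and the machinery that returns misfolded proteins from the ER to the cytosol. They were found by matching the Ensembl identifiers of the liver expression table to the 32 gene symbols, and all 32 were among its 54007 rows. The rule that defines them uses gene symbols and no expression level, although the set was drawn up with earlier results of these data known. Of the 32, 31 reached 1 FPKM (a read level scaled to transcript length and library size) in at least 3 of the 9 libraries and were tested among 10988 genes. Derl3 did not.

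The livers were those of C57BL/6 mice 98 days after birth, sequenced as 3 libraries for each of 3 groups. The HFD+Pc group ate a high-fat diet and was gavaged with the gut bacterium *Papillibacter cinnamivorans* (replicates 1, 3 and 4), the HFD group ate that diet without the bacterium (replicates 1, 2 and 3), and the control group had neither (replicates 1, 2 and 4). Mice entered at 6 weeks of age, 15 to a group. From the labels it is not clear if each library is a single mouse, what the HFD and control groups were gavaged with, or the sex or the dose of bacteria. The p-values therefore measure only the spread between libraries. Levels below are FPKM, as mean ± SD over 3 libraries where a mean is given. Differences are of log2(FPKM + 1), with their SE, a scale that compresses the changes of genes at low levels. A gene is called where limma's Benjamini-Hochberg adjusted p, over the 10988 genes, is under 0.05.

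Most secreted and membrane proteins enter the ER as unfolded chains, and the hepatocyte, which makes the bulk of the plasma proteins, carries a large folding load. In the ER the Hsp70 chaperone BiP (Hspa5) and its co-chaperones, the lectin chaperones calnexin and calreticulin and the protein disulfide isomerases fold these chains, and chains that fail are pulled out and degraded by ER-associated degradation (ERAD). When unfolded chains build up, the sensors IRE1 alpha (Ern1), ATF6 and PERK (Eif2ak3) start the unfolded protein response. IRE1 alpha splices Xbp1 mRNA into the form that encodes an active transcription factor, ATF6 is cut to release one, and PERK slows translation and favours translation of ATF4. These factors raise transcription of many of the chaperone and ERAD genes through short promoter sequences.

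The best known of these sequences is the ER stress element, CCAAT followed by 9 bases and CCACG, which ATF6 binds with the CCAAT factor NF-Y. It is shown here because many of the genes share it. The rule that defines them does not use it, but the element is known from genes of this response. The shares below are therefore a description and no test. RefSeq promoter windows of 300 bases (250 before and 50 after the start site, GRCm38.p6) were found by gene name for 26 of the 32 genes, in 27 windows. Atf6, Ppp1r15b, Hyou1, Manf, Derl1 and Sec61a1 were not matched. The element, read on both strands with no mismatch, was in 10 of the 27 windows (37%) and in 39 of all 32817 windows in the table (0.119%). A shorter second form, ATTGG followed by 1 base and CCACG, was in the windows of Dnajb11 and Herpud1 (7.41%) and in 12 of all windows (0.0366%). The matches are printed with 5 bases on each side, in the direction in which the element reads, with the fixed letters in capitals.
Hspa5: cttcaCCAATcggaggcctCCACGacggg
Hsp90b1, farther from the start: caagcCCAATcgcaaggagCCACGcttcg
Hsp90b1, nearer the start: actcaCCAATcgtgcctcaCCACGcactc
Canx: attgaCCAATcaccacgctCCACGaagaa
Calr: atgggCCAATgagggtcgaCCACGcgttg
Pdia6: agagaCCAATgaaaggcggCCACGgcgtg
Ero1lb: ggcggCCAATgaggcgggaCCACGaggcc
Dnajc3: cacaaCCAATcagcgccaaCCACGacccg
Creld2: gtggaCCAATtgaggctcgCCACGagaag
Syvn1: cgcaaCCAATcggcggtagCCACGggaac
Derl3: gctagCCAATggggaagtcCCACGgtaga
Dnajb11, second form: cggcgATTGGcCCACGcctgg
Herpud1, second form: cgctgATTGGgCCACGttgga

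In GRCm38.p6 the printed stretches lie at chr2:34772020-34772048 on the + strand for Hspa5, at chr10:86705633-86705661 on the - strand and chr10:86705528-86705556 on the + strand for Hsp90b1, and at chr11:50325795-50325823 on the - strand for Canx. Those of Calr and Pdia6 lie at chr8:84847070-84847098 and chr12:17266486-17266514, both on the + strand. Those of Ero1lb (Ero1b in RefSeq) and Dnajc3 lie at chr13:12565677-12565705 on the - strand and chr14:118937822-118937850 on the + strand. Those of Creld2, Syvn1 and Derl3 lie at chr15:88819515-88819543 (- strand), chr19:6046527-6046555 (+ strand) and chr10:75893237-75893265 (- strand). The second forms lie at chr16:22857847-22857867 for Dnajb11 and chr8:94386372-94386392 for Herpud1, both on the + strand. All but that of Dnajb11, which lies just past the start site, are upstream of it: the first base of the element is 65 bases upstream in Hspa5, 145 in Canx, and 212 and 107 in the 2 matches of Hsp90b1.

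**Figure D1:**
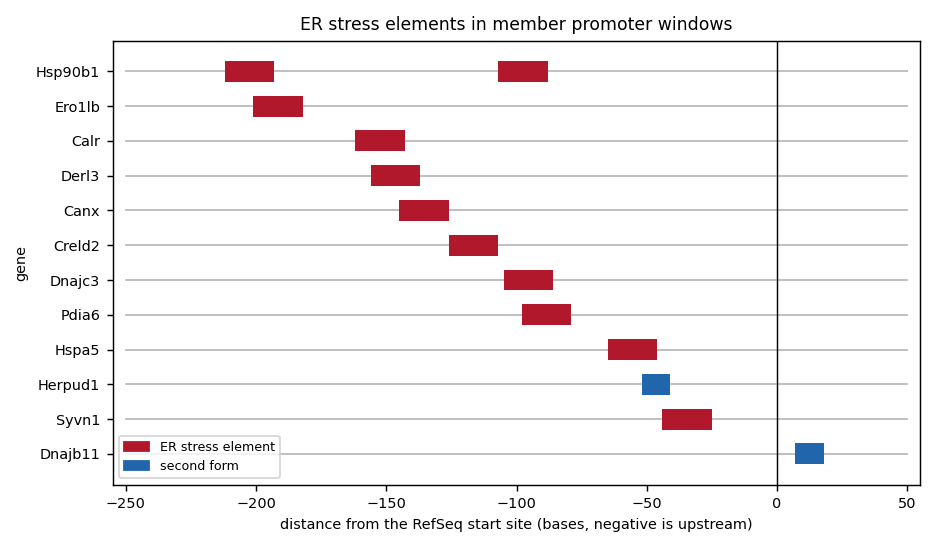
Position of the ER stress element (red) and of its second form (blue) in the promoter windows of the 12 genes that hold either. The x axis is the distance from the RefSeq start site in bases, with negative values upstream, and each grey line is 1 window of 300 bases. The matches upstream of the start begin between 212 bases (Hsp90b1) and 44 bases (Syvn1) before it.

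The 250 bases before the start sites of Hspa5 and Dnajb9 are printed because these genes had the largest differences of the 31 between HFD+Pc and control livers. In Hspa5 (chr2:34771840-34772089, + strand, GRCm38.p6) the capitals mark the ER stress element. In Dnajb9 (chr12:44210069-44210318, - strand), whose window has no match to either form, they mark its 2 copies of the core site CCACG. That core site alone was in 22 of the 27 windows (81.5%) and in 10752 of all windows (32.8%), and it lies within every match to the element. The sequence TGACGTGG, a site that ATF6 and XBP1 can bind, was in none of the 27 and in 222 of all windows (0.676%).
Hspa5: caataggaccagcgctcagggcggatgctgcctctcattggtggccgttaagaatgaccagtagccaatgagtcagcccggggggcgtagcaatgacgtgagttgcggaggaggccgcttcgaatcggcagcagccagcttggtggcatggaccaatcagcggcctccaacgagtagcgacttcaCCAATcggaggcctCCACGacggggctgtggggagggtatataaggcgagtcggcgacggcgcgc
Dnajb9: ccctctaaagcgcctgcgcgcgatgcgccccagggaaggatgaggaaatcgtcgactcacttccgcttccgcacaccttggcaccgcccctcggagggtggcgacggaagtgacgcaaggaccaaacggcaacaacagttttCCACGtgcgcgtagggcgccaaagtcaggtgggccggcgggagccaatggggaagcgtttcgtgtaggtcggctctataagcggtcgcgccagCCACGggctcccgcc

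HFD+Pc livers held more transcript than control livers for BiP, for its co-chaperone Dnajb9, for Hyou1, calnexin and Pdia3, and for the sensors Ern1 and Eif2ak3 and the transcription factor Xbp1. Manf, a secreted ER protein, and Derl2, of ERAD, were called as well, which makes 10 of the 31 genes called higher (32.3%), against 11.1% of all tested genes. None was called lower, against 11.9% of all tested genes. The median difference was 0.33, with 26 above 0, against a median of 0.01 over all tested genes, of which 51.3% were above 0. In HFD livers against control livers 3 genes were called higher, Ern1, Canx and Pdia3, against 4.61% of all tested genes, and none lower, against 5.35%. In HFD+Pc livers against HFD livers 1 gene, Dnajb9, was called higher, against 0.182% of all tested genes, and none lower, against 0.446%. Over all genes the calls in HFD against control were 507 higher and 588 lower, but 590 and 395 with the values rescaled to TPM, and 1039 and 442 by limma-voom with plain read totals as library sizes. Under these 2 scalings 3 and 6 of the 31 were called higher in that comparison, and none lower. In HFD+Pc against HFD the calls over all genes were 20 higher and 49 lower, but 19 and 94 with TPM, 35 and 150 with plain read totals, and 48 and 74 by limma-voom with the library sizes behind the FPKM. The 3 comparisons share libraries pair by pair, so their results are not independent of one another.

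At an unadjusted p under 0.05, limma passed 19 of the 31 in HFD+Pc against control (38.2% of all tested genes), 8 in HFD+Pc against HFD (15.6%) and 10 in HFD against control (27.8%). Of the 31 differences 27 were above 0 in HFD+Pc against HFD (median 0.13), against 52.2% of all tested genes (median 0.0094), and 19 in HFD against control (median 0.12), against 49.9% (median -0.00087). The median in HFD+Pc against HFD was 0.25 without HFD+Pc replicate 1 and 0.20 without HFD replicate 2, and the count above 0 was 22 without HFD replicate 3 or HFD+Pc replicate 4 and 21 by limma-voom with plain read totals. The median in HFD against control was 0.06 without HFD replicate 2, and 0.20 with plain read totals. The genes stand at higher levels than most: their median is 20.9 FPKM, against 4.42 FPKM over all tested genes. Among the 5106 tested genes with a mean of at least 5 FPKM, 15.06% were called higher in HFD+Pc against control, and so were 9 of the 30 genes described here that are among them.

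In the deposited table the 10 genes are Hspa5 (ENSMUSG00000026864), Dnajb9 (ENSMUSG00000014905), Hyou1 (ENSMUSG00000032115), Canx (ENSMUSG00000020368), Pdia3 (ENSMUSG00000027248), Ern1 (ENSMUSG00000020715), Eif2ak3 (ENSMUSG00000031668), Xbp1 (ENSMUSG00000020484), Manf (ENSMUSG00000032575) and Derl2 (ENSMUSG00000018442).

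**Figure D2:**
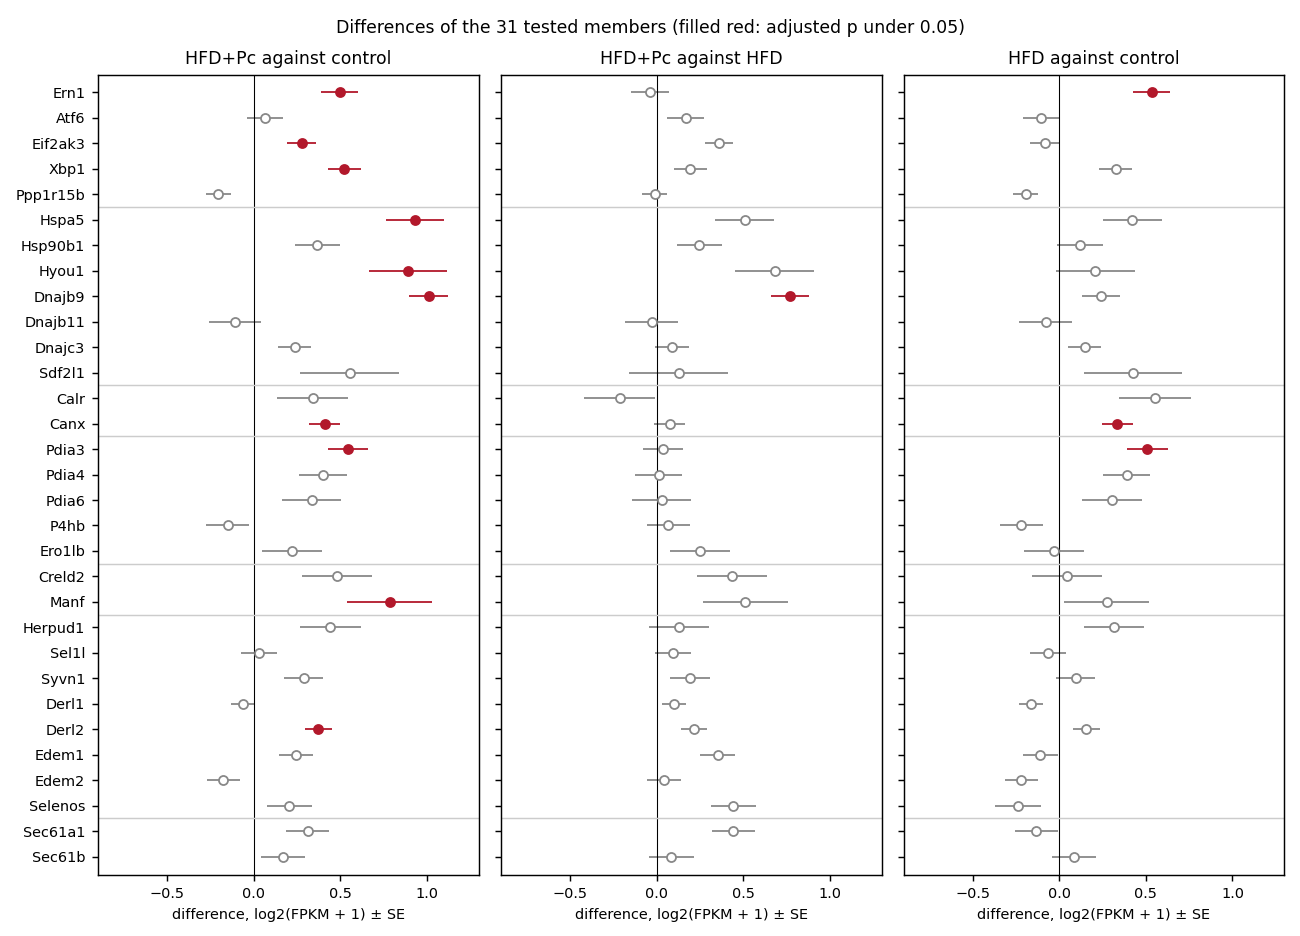
Difference of each of the 31 tested genes on the log2(FPKM + 1) scale ± SE, between HFD+Pc and control, HFD+Pc and HFD, and HFD and control, from left to right. Genes run down the page by role, with grey lines between roles, and filled red points are called by limma at an adjusted p under 0.05. There are 10, 1 and 3 red points in the panels, all to the right of 0.

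Groups could also be set apart without a test, by counting genes whose libraries do not overlap between 2 groups. Every HFD+Pc library lay above every control library in 13 of the 31 genes (41.9%, against 22.1% of all tested genes), the 10 called genes with Edem1, Sec61a1 and Syvn1. Every HFD+Pc library lay below every control library in 3, Derl1, Edem2 and Ppp1r15b, against 20.8% of all tested genes. Every HFD+Pc library lay above every HFD library in 8 (Derl1, Derl2, Dnajb9, Edem1, Eif2ak3, Sec61a1, Selenos and Xbp1), against 10.2% of all tested genes, and below in none, against 9.56%. Every HFD library lay above every control library in 8 (Canx, Derl2, Ern1, Herpud1, Hspa5, Pdia3, Pdia4 and Xbp1), against 16.5%, and below in 2 (Derl1 and Ppp1r15b), against 16.4%.

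Among the sensors, Ern1, which encodes the kinase and RNase IRE1 alpha, was at 8.40, 8.85 and 8.09 FPKM in HFD+Pc replicates 1, 3 and 4. It was at 9.30, 9.09 and 7.77 FPKM in HFD replicates 1, 2 and 3, and at 5.27, 5.13 and 6.84 FPKM in control replicates 1, 2 and 4. The libraries of both high-fat diet groups lay above those of the control group and overlapped each other. Ern1 was called higher in HFD+Pc against control (0.50 ± 0.11, limma adjusted p = 0.0124) and in HFD against control (0.53 ± 0.11, limma adjusted p = 0.0207), and differed by -0.04 ± 0.11 in HFD+Pc against HFD (limma adjusted p = 0.901). The call in HFD against control was lost without control replicates 1 or 2 or HFD replicates 1 or 2 (highest limma adjusted p = 0.0703), and with no filter on low levels (limma adjusted p = 0.0710). The call in HFD+Pc against control remained whichever of the 9 libraries was left out.

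Xbp1, the target of the IRE1 alpha RNase, was at 51.0, 50.7 and 52.3 FPKM in HFD+Pc livers, 44.0, 48.9 and 41.4 FPKM in HFD livers and 38.8, 31.7 and 36.2 FPKM in control livers. The 3 groups did not overlap, with HFD in the middle. Xbp1 was called higher in HFD+Pc against control (0.52 ± 0.10, limma adjusted p = 0.00635) and remained so in each of the 9 fits without 1 library. The differences of 0.20 in HFD+Pc against HFD and 0.33 in HFD against control did not pass (limma adjusted p = 0.361 and 0.0602), though the second passed by limma-voom on recovered reads (adjusted p = 0.0408). Levels per gene do not separate spliced from unspliced Xbp1 mRNA, so they carry no reading of IRE1 alpha activity.

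Eif2ak3, which encodes the kinase PERK, was the lowest of the sensors, at 3.02, 3.62 and 2.98 FPKM in HFD+Pc livers, 2.20, 2.41 and 2.20 FPKM in HFD livers and 2.55, 2.51 and 2.35 FPKM in control livers. The HFD+Pc libraries lay above all others. It was called higher in HFD+Pc against control (0.28 ± 0.08, limma adjusted p = 0.0393), a call that remained only without HFD replicates 2 or 3 and was lost without any of the other 7 libraries (highest limma adjusted p = 0.138). It was also lost with TPM scaling, with a minimum of 0.1 FPKM, with no filter and with 2 groups alone (limma adjusted p = 0.0530 to 0.0933). In HFD+Pc against HFD it differed by 0.36 ± 0.08 (limma adjusted p = 0.0860), and in HFD against control by -0.09 (limma adjusted p = 0.532).

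Atf6, the precursor of the cleaved transcription factor, averaged 10.4 ± 1.25 FPKM in HFD+Pc livers, 9.12 ± 0.726 in HFD livers and 9.89 ± 1.05 in control livers, with groups that overlapped and no call. Ppp1r15b, the constitutive partner of the phosphatase that removes the PERK mark from eIF2 alpha, was at 20.1, 19.6 and 19.5 FPKM in HFD+Pc livers, 20.3, 20.03 and 19.4 in HFD livers and 24.6, 22.8 and 21.4 in control livers. Both high-fat diet groups lay below the control group without overlap. Its differences of -0.21 in HFD+Pc against control and -0.20 in HFD against control did not pass (limma adjusted p = 0.0657 and 0.116).

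**Figure D3:**
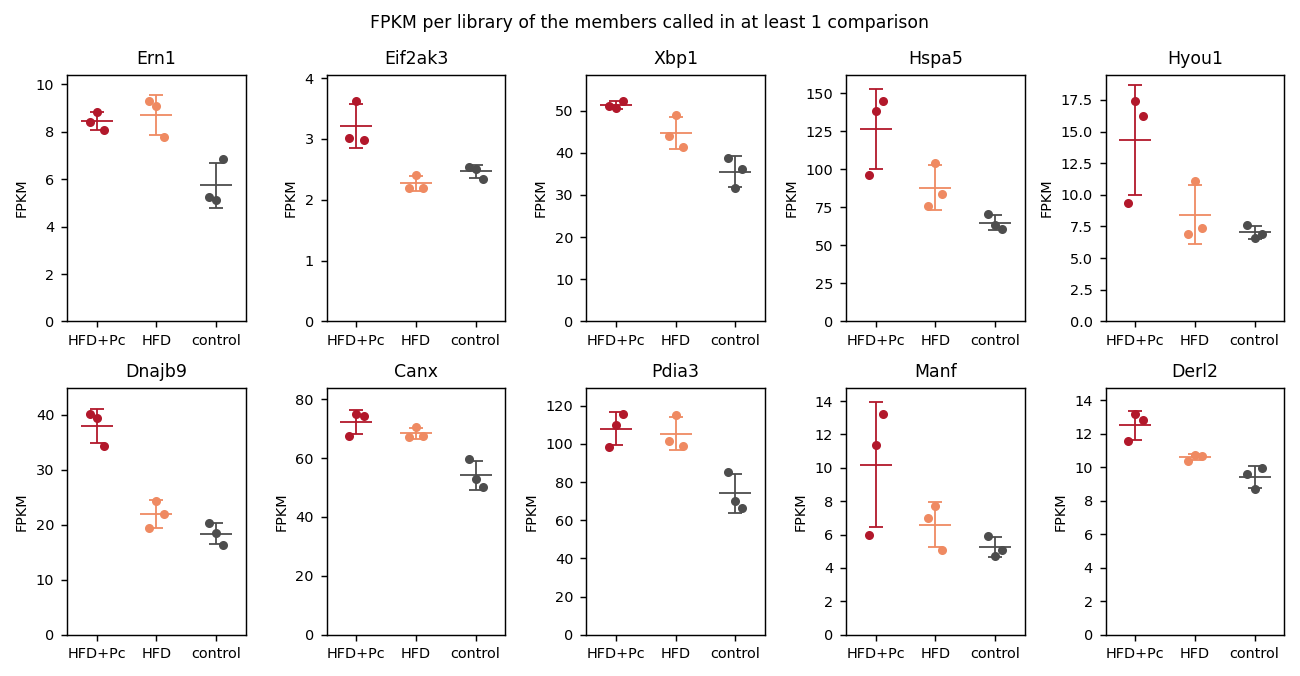
FPKM in each library of the 10 genes called in at least 1 comparison, by group, with HFD+Pc on the left, HFD in the middle and control on the right. Points are libraries, wide bars are means and whiskers are SD, n = 3 each. Dnajb9 lies between 34.3 and 40.0 FPKM in the 3 HFD+Pc libraries and between 16.4 and 24.4 FPKM in the other 6.

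The Hsp70 and Hsp90 system of the ER lumen held the 3 largest differences of the 31 in HFD+Pc against control. Hspa5 (BiP), which binds unfolded chains and holds the sensors inactive, was at 96.0, 138 and 145 FPKM in HFD+Pc livers, 75.7, 104 and 83.5 FPKM in HFD livers and 70.5, 63.7 and 60.5 FPKM in control livers. Both high-fat diet groups lay above the control group, and they overlapped each other because HFD+Pc replicate 1 lay below HFD replicate 2. BiP was called higher in HFD+Pc against control (0.93 ± 0.17, limma adjusted p = 0.00618), also in each of the 9 fits without 1 library, where the difference was between 0.82 and 1.11. The differences of 0.51 ± 0.17 in HFD+Pc against HFD and 0.42 ± 0.17 in HFD against control did not pass (limma adjusted p = 0.196 and 0.142), though the second passed by limma-voom with plain read totals (0.51, adjusted p = 0.0339).

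Dnajb9 (ERdj4), a J-domain co-chaperone of BiP and a classical target of spliced XBP1, was at 40.0, 39.4 and 34.3 FPKM in HFD+Pc livers. It was at 19.3, 24.4 and 22.0 FPKM in HFD livers and at 20.3, 18.4 and 16.4 FPKM in control livers. The HFD+Pc libraries lay above all others, while HFD and control overlapped. It was called higher in HFD+Pc against control (1.01 ± 0.11, limma adjusted p = 0.00141) and in HFD+Pc against HFD (0.77 ± 0.11, limma adjusted p = 0.0244), and differed by 0.24 ± 0.11 in HFD against control (limma adjusted p = 0.198). The call against HFD was lost without HFD replicates 1 or 2 or any of the 3 HFD+Pc libraries (highest limma adjusted p = 0.130), with differences of 0.69 to 0.85, and with 2 groups alone and with no filter (limma adjusted p = 0.0604 and 0.128). The call against control remained in each of the 9 fits.

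Hyou1 (GRP170), a large Hsp70 relative that exchanges nucleotide on BiP, was at 9.35, 17.4 and 16.2 FPKM in HFD+Pc livers, 6.90, 11.1 and 7.35 FPKM in HFD livers and 7.62, 6.55 and 6.94 FPKM in control livers. HFD+Pc replicate 1 stood low in its group and still above every control library. The difference from control was 0.89 ± 0.23 (limma adjusted p = 0.0234) and lost its call without any control library or without HFD+Pc replicates 3 or 4 (highest limma adjusted p = 0.0837), or with no filter (limma adjusted p = 0.0732). Its differences of 0.68 ± 0.23 in HFD+Pc against HFD and 0.21 ± 0.23 in HFD against control did not pass (limma adjusted p = 0.201 and 0.591).

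Hsp90b1 (GRP94), the Hsp90 of the ER, averaged 86.7 ± 7.77 FPKM in HFD+Pc livers, 72.8 ± 6.06 in HFD livers and 67.5 ± 12.1 in control livers. The HFD+Pc libraries overlapped with control through control replicate 1, which held 81.3 FPKM. Its difference of 0.37 ± 0.13 from control did not pass (limma adjusted p = 0.0714), and passed without control replicate 1 (0.51, limma adjusted p = 0.0250) and by limma-voom on recovered reads (adjusted p = 0.0418). The J-domain co-chaperones Dnajc3 (p58IPK, 0.24 in HFD+Pc against control) and Dnajb11 (ERdj3, -0.11) did not pass, nor did Sdf2l1, a partner of Dnajb11 (0.55 ± 0.28, limma adjusted p = 0.103, 0.634 and 0.187). Sdf2l1 ranged from 3.61 to 10.1 FPKM over the 9 libraries, with groups that overlapped.

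Of the lectin chaperones, which hold glycoproteins by their trimmed sugars, calnexin (Canx) was at 67.4, 74.8 and 74.3 FPKM in HFD+Pc livers, 67.0, 70.6 and 67.4 FPKM in HFD livers and 59.7, 52.8 and 50.05 FPKM in control livers. Both high-fat diet groups lay above control. Canx was called higher in HFD+Pc against control (0.41 ± 0.09, limma adjusted p = 0.0121) and in HFD against control (0.33 ± 0.09, limma adjusted p = 0.0457). The call in HFD against control was lost without any library other than HFD+Pc replicate 1 (highest limma adjusted p = 0.133), and with a minimum of 0.1 FPKM, 2 groups alone or no filter (0.0668 to 0.117). Calreticulin (Calr), the soluble relative of calnexin, was at 93.1, 132 and 136 FPKM in HFD+Pc livers, 133, 168 and 117 FPKM in HFD livers and 119, 91.0 and 76.1 FPKM in control livers. Its groups overlapped, and no difference passed, with 0.34 and 0.55 for HFD+Pc and HFD against control and -0.21 for HFD+Pc against HFD (limma adjusted p = 0.261, 0.123 and 0.669).

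Pdia3 (ERp57), the disulfide isomerase that works with calnexin and calreticulin, was at 98.5, 110.2 and 116 FPKM in HFD+Pc livers, 102, 115 and 99.1 FPKM in HFD livers and 85.6, 70.3 and 66.4 FPKM in control livers. The libraries of both high-fat diet groups lay above control and overlapped each other. It was called higher in HFD+Pc against control (0.54 ± 0.12, limma adjusted p = 0.0115), also in each of the 9 fits without 1 library, and in HFD against control (0.51 ± 0.12, limma adjusted p = 0.0290). The call in HFD against control was lost without control replicates 2 or 4 or HFD replicates 1 or 2 (highest limma adjusted p = 0.0930), and with 2 groups alone or no filter (limma adjusted p = 0.0518 and 0.0911). The difference in HFD+Pc against HFD was 0.04 ± 0.12 (limma adjusted p = 0.913).

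P4hb (PDI), the abundant disulfide isomerase that is also a subunit of collagen prolyl hydroxylase, had the highest level of the 32 on the per-length scale. It averaged 392 ± 23.8 FPKM in HFD+Pc livers, 375 ± 36.7 in HFD livers and 437 ± 56.4 in control livers, with overlapping groups. Its differences were -0.15 in HFD+Pc against control and -0.22 in HFD against control (limma adjusted p = 0.396 and 0.279). The related isomerases Pdia4 (0.40 and 0.39) and Pdia6 (0.33 and 0.30) did not pass in these comparisons (lowest limma adjusted p = 0.0628, for Pdia4 in HFD+Pc against control), although Pdia4 passed in HFD+Pc against control without HFD+Pc replicate 1 (limma adjusted p = 0.02003) and by limma-voom on recovered reads (adjusted p = 0.0323), and in HFD against control by limma-voom with plain read totals (adjusted p = 0.0269). Ero1lb, the oxidase that passes oxidizing equivalents to these isomerases, averaged 9.22 ± 1.54, 7.68 ± 2.08 and 7.75 ± 0.936 FPKM in HFD+Pc, HFD and control livers and was not called.

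Manf, a small luminal protein that is secreted under ER stress, was at 5.99, 11.4 and 13.2 FPKM in HFD+Pc livers, 7.01, 7.72 and 5.08 FPKM in HFD livers and 5.89, 4.71 and 5.10 FPKM in control livers. HFD+Pc replicate 1 lay only just above control replicate 1. Manf was called higher in HFD+Pc against control (0.79 ± 0.25, limma adjusted p = 0.0478), and the call was lost without any control library, HFD replicates 1 or 2, or HFD+Pc replicates 3 or 4 (highest limma adjusted p = 0.146). Manf was also not called with a pseudocount of 0.1, TPM scaling, either of the lower filters, 2 groups alone or limma-voom (adjusted p = 0.0512 to 0.132). Creld2, another secreted ER stress protein, was at 6.99, 11.6 and 12.7 FPKM in HFD+Pc livers, 7.18, 8.83 and 5.92 in HFD livers and 6.50, 6.76 and 7.73 in control livers. Its difference of 0.48 ± 0.20 from control did not pass (limma adjusted p = 0.113), and passed without HFD+Pc replicate 1 (limma adjusted p = 0.0135).

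In ERAD, which recognizes terminally misfolded chains and moves them out of the ER for ubiquitination, 1 of 8 tested genes was called in HFD+Pc against control, a share near the 11.1% of all tested genes, and none in the other comparisons. This was Derl2, a derlin of the export channel, at 11.6, 13.2 and 12.8 FPKM in HFD+Pc livers, 10.4, 10.8 and 10.7 in HFD livers and 9.62, 8.71 and 9.99 in control livers. The 3 groups did not overlap, with HFD in the middle. The difference from control was 0.37 ± 0.08 (limma adjusted p = 0.0104) and remained called in each of the 9 fits without 1 library, while those of 0.22 in HFD+Pc against HFD and 0.16 in HFD against control did not pass (limma adjusted p = 0.228 and 0.223). Its paralog Derl1 averaged 39.5 ± 0.691 FPKM in HFD+Pc livers, 36.8 ± 1.51 in HFD livers and 41.3 ± 0.645 in control livers, with no overlap between groups and no call.

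Herpud1, which assembles the ubiquitin ligase complex, was at 73.4, 108 and 123 FPKM in HFD+Pc livers, 91.4, 91.2 and 89.2 in HFD livers and 63.3, 72.8 and 83.3 in control livers. The HFD libraries lay above control, and HFD+Pc replicate 1 lay within control. Its difference of 0.44 ± 0.17 in HFD+Pc against control did not pass (limma adjusted p = 0.0939), nor did that of the ligase Syvn1 (HRD1, 0.29 ± 0.11, limma adjusted p = 0.0957). Both passed without HFD+Pc replicate 1 (limma adjusted p = 0.0113 and 0.0185). Sel1l, the adaptor of Syvn1, differed by 0.03 (limma adjusted p = 0.863).

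Edem1 and Edem2 act in the ERAD of glycoproteins. Edem1 was at 39.6, 46.9 and 41.0 FPKM in HFD+Pc livers, 29.0, 35.7 and 34.7 in HFD livers and 35.6, 35.1 and 36.3 in control livers, so that the HFD+Pc libraries lay above all others. Its differences of 0.24 from control and 0.35 from HFD did not pass (limma adjusted p = 0.102 and 0.140). Edem2 differed by -0.18 from control (limma adjusted p = 0.212). Selenos, a selenoprotein that ties the AAA ATPase p97 to the derlins, was at 25.9, 30.3 and 36.1 FPKM in HFD+Pc livers, 20.8, 23.2 and 22.5 in HFD livers and 29.7, 22.7 and 27.0 in control livers. It lay above HFD without overlap and overlapped control, with a difference of 0.44 ± 0.13 from HFD (limma adjusted p = 0.157).

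Derl3, the derlin most restricted to secretory cells, was below the filter, and its values are given as recovered reads and FPKM with no test. It had 7, 6 and 9 reads in HFD+Pc livers (0.201, 0.180 and 0.267 FPKM), 36, 34 and 1 in HFD livers (0.984, 0.994 and 0.0298 FPKM) and 14, 7 and 5 in control livers (0.376, 0.207 and 0.139 FPKM). HFD replicates 1 and 2 stood above all other libraries, and HFD replicate 3 below all. In this gene 3 reads correspond to 0.0805 to 0.0898 FPKM.

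The translocation channel, through which chains enter the ER, showed no call. Its pore subunit Sec61a1 was at 16.0, 18.8 and 18.4 FPKM in HFD+Pc livers, 10.5, 14.3 and 13.7 in HFD livers and 15.9, 13.4 and 13.0 in control livers. The HFD+Pc libraries lay above all others. Its differences of 0.31 from control and 0.44 from HFD did not pass (limma adjusted p = 0.0982 and 0.140), though the first passed by limma-voom with plain read totals (adjusted p = 0.0477). The small subunit Sec61b differed by 0.17 and 0.09 (limma adjusted p = 0.365 and 0.795).

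Set by role, the median difference in HFD+Pc against control was 0.63 for the 2 luminal secreted factors, 0.55 for the 7 genes of the Hsp70 and Hsp90 system and 0.37 for the 2 lectin chaperones. It was 0.33 for the 5 disulfide enzymes, 0.28 for the 5 sensors and signalling genes, 0.24 for the 2 channel subunits and 0.22 for the 8 tested ERAD genes. The called genes split in how they stood in the other comparisons, whose difference from each other was not tested. Ern1, Canx and Pdia3 differed by 0.53, 0.33 and 0.51 in HFD against control and by -0.04, 0.08 and 0.04 in HFD+Pc against HFD. Dnajb9, Eif2ak3, Hyou1 and Manf had the larger difference in HFD+Pc against HFD, 0.77, 0.36, 0.68 and 0.51, and differed by 0.24, -0.09, 0.21 and 0.27 in HFD against control. For Manf this order turned without HFD replicate 3, with 0.36 in HFD+Pc against HFD and 0.43 in HFD against control, and over the 9 fits without 1 library its difference in HFD+Pc against HFD was 0.31 to 0.82. For Hspa5, Xbp1 and Derl2 the same pair of values was 0.51 and 0.42, 0.20 and 0.33, and 0.22 and 0.16.

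Many of the genes moved together from library to library within a group, so the counts over the 31 are not counts of independent observations. HFD+Pc replicate 1 was the lowest of its group in 26 of the 31, against 41.3% of all tested genes, HFD replicate 2 the highest of its group in 26, against 31.1%, and control replicate 1 the highest of its group in 23, against 33.9%. The mean of the 31 genes, relative to their means over the 9 libraries on the log2(FPKM + 1) scale, was -0.02, 0.27 and 0.28 in HFD+Pc replicates 1, 3 and 4. It was -0.09, 0.13 and -0.12 in HFD replicates 1, 2 and 3 and -0.04, -0.21 and -0.20 in control replicates 1, 2 and 4. By this mean HFD+Pc replicate 1 lay between control replicate 1 and HFD replicate 2, and so did not stand apart from the other groups. Without HFD+Pc replicate 1, 13 of the 31 were called higher in HFD+Pc against control, against 9.71% of all genes tested in that fit. Over the 9 fits without 1 library the count was 7 to 13, against 5.5% to 11.6% of all genes tested. The 7 genes called in each of those fits were Ern1, Xbp1, Hspa5, Dnajb9, Canx, Pdia3 and Derl2.

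**Figure D4:**
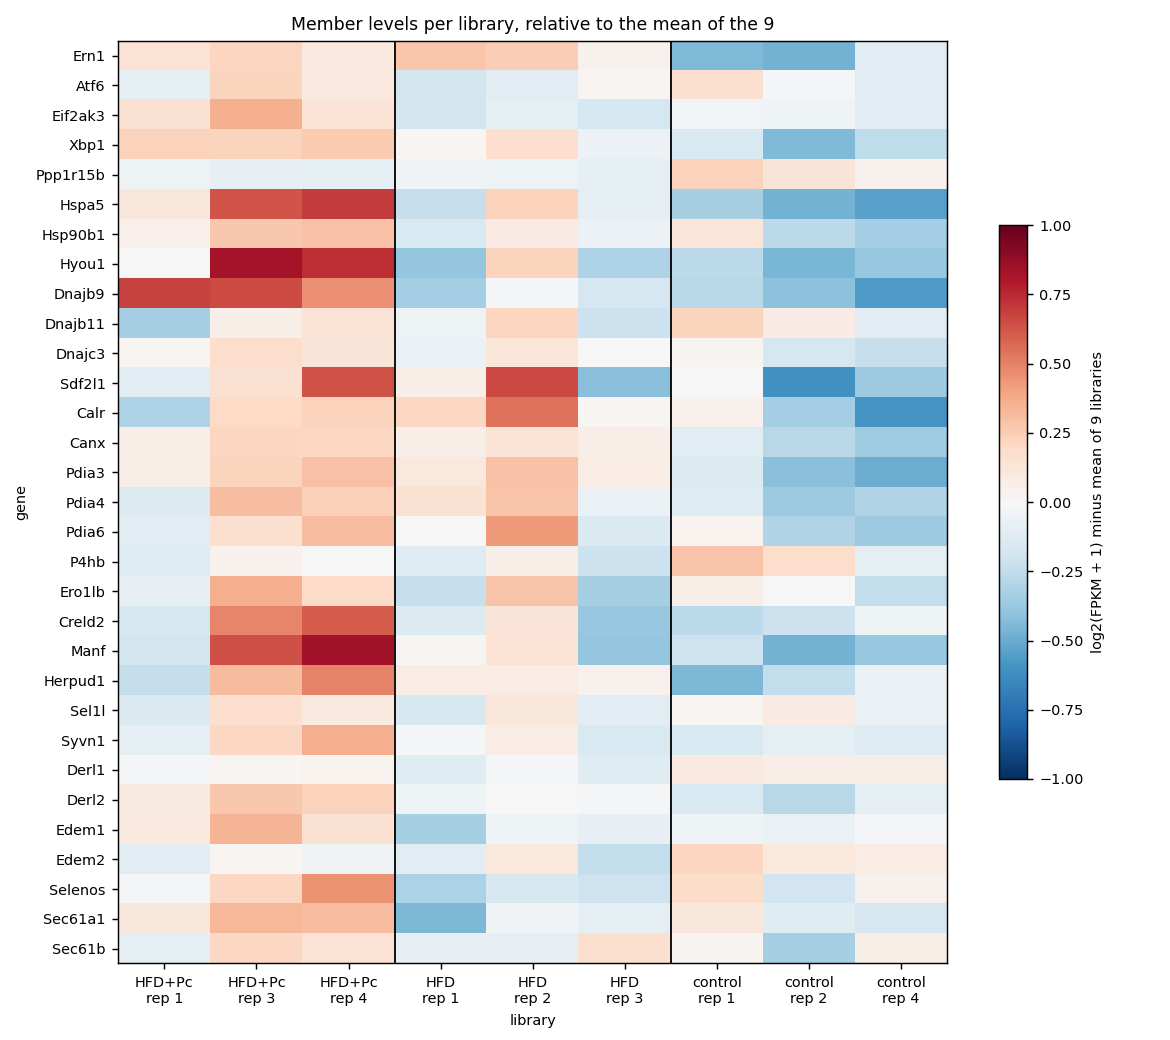
Level of each of the 31 tested genes in each library, as log2(FPKM + 1) minus the gene's mean over the 9 libraries, with red above and blue below that mean. HFD+Pc replicates 3 and 4 are red in most rows (mean of the 31 genes 0.27 and 0.28), HFD+Pc replicate 1 is near 0 (-0.02), and control replicates 2 and 4 are blue in most rows (-0.21 and -0.20).

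Called genes stood both with and without a promoter match. Among the 9 tested genes with an ER stress element in the window all differences in HFD+Pc against control were above 0, with a median of 0.34, and 2 were called, Hspa5 and Canx. Among the 14 with neither form 12 were above 0, with a median of 0.32, and 6 were called. Over all tested genes 51.3% were above 0 and 11.1% were called higher. A match describes these letters in this window and is no measure of binding, and the lack of one says nothing of regulation by ATF6 or XBP1.

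The wider pathway was described with other genes of the ER and of its stress response, listed under 109 names. Of these names 107 were matched to a gene in the data, and 103 of those genes were tested. In HFD+Pc against control 16 were called higher and 7 lower, against 11.1% and 11.9% of all tested genes, with a median of 0.08. In HFD against control 2 were higher and 3 lower, against 4.61% and 5.35% of all tested genes. In HFD+Pc against HFD none was called, against 0.182% higher and 0.446% lower. The most strongly called rises in HFD+Pc against control were Ubxn4, which recruits p97 to the ER membrane (0.60 ± 0.09), the luminal selenoprotein Selenof (0.50 ± 0.08) and Sec23b, a subunit of the COPII coat that carries cargo out of the ER (0.77 ± 0.16, limma adjusted p = 0.00307, 0.00444 and 0.00991). By group of genes, 3 of 15 translocon and signal peptidase genes, 2 of 13 glycosylation genes, 3 of 20 further folding factors, 3 of 22 further ERAD genes, 3 of 20 signalling genes and 2 of 13 genes of transport to the Golgi were higher. The falls numbered 0, 0, 1, 3, 2 and 1 in the same order.

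Atf4, the transcription factor of the PERK branch, was lower. It was at 15.9, 19.2 and 20.7 FPKM in HFD+Pc livers, 28.8, 32.0 and 27.8 FPKM in HFD livers and 36.7, 35.2 and 28.1 FPKM in control livers. The HFD+Pc libraries lay below all others, and the difference from control was -0.81 ± 0.13 (limma adjusted p = 0.00360) and from HFD -0.65 ± 0.13 (limma adjusted p = 0.0554). ATF4 is controlled mainly in translation, which these data do not measure. The other falls most strongly called in HFD+Pc against control were Aup1, a lipid droplet and ERAD factor (-0.59 ± 0.10), and Fkbp2, an ER prolyl isomerase (-1.27 ± 0.23, limma adjusted p = 0.00557 and 0.00720). Ddit3 (CHOP), the ATF4 target tied to cell death, averaged 2.27 ± 0.584, 2.26 ± 0.461 and 1.88 ± 0.220 FPKM in HFD+Pc, HFD and control livers and was not called (lowest limma adjusted p = 0.422). Ppp1r15a, another of the signalling genes, was called lower in HFD+Pc against control (-0.55 ± 0.16, limma adjusted p = 0.0330). With Atf4 it makes up the 2 signalling genes called lower, against 3 called higher. Ddit3 and Ppp1r15a are named here after their values were seen. In HFD against control the called genes were Ubxn4 (0.47) and Nfe2l2 (NRF2, 0.52), both higher, and Ubxn6 (-0.44), Fkbp14 (-0.39) and Prdx4 (-0.45), all lower.

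In bulk liver RNA, fewer cells of a type and less RNA per cell cannot be told apart, and markers of several cell types moved with the groups. The summed level of 10 hepatocyte markers was 44384 to 58611 FPKM in HFD+Pc, 39724 to 41936 in HFD and 54765 to 56233 in control libraries, high in all 9, as in liver. Albumin (Alb) alone made up 28977 to 41658 FPKM of it in HFD+Pc, 26086 to 27141 in HFD and 38002 to 39245 in control libraries. In HFD+Pc against control 2 of the 10 were called higher, Cyp2e1 and Serpina1a, and 2 lower, Apoa1 and Hnf4a, in HFD against control Apoa1 was lower, and in HFD+Pc against HFD none was called. Of 12 markers of B and plasma cells, a cell type rich in ER chaperones, 3 of 7 tested were higher in HFD against control and 1 was lower in HFD+Pc against HFD. They summed to 32.7 to 46.4, 62.2 to 95.4 and 28.3 to 42.3 FPKM, and the plasma cell chaperone Mzb1 was at 0 in 5 of the 9 libraries and at most at 0.196 FPKM. Of 12 pancreatic acinar markers none reached the filter, the sums stayed between 0.137 and 0.879 FPKM, and Pnlip and Prss2 were at 0 in all libraries. The 10 macrophage markers summed to 393, 288 and 244 FPKM in HFD+Pc replicates 1, 3 and 4, 480, 463 and 356 in HFD replicates 1, 2 and 3 and 383, 346 and 479 in control replicates 1, 2 and 4. The part of plasma cells, macrophages and the other cell types in the differences above was not tested.

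Of 8 endothelial markers 2 were lower in HFD+Pc against control and 2 in HFD against control, and of 8 stellate cell markers 3 were lower and 1 higher in HFD+Pc against control and 2 lower in HFD against control. The 6 adipocyte markers summed to 2.83 to 6.95 FPKM in HFD+Pc, 6.83 to 28.5 in HFD and 0.505 to 1.10 in control libraries. Cfd alone made up 2.33 to 5.95 FPKM of this sum in HFD+Pc and 5.23 to 21.8 in HFD libraries. Cfd was called higher in both groups against control, while Plin4, the other marker tested, was not called in any comparison. Adipoq, Lep, Plin1 and Retn were at 0 in all HFD+Pc libraries. Of 9 tested immediate early genes, which respond to handling, 5 were lower and 1 higher in HFD+Pc against control. In HFD against control 3 were lower, and in HFD+Pc against HFD 1 was higher. Control replicate 1 had the highest sum for the whole list of such genes, 160 FPKM against 57.3 to 122 in the others. Of 11 tested cytosolic heat shock genes 3 were called higher in HFD+Pc against control and 3 in HFD against control. In HFD+Pc against HFD none of these was called. Beside these counts and those of the other markers above, 11.1% of all tested genes were called higher and 11.9% lower in HFD+Pc against control. The shares were 4.61% and 5.35% in HFD against control, and 0.182% and 0.446% in HFD+Pc against HFD. Whether tissue handling or a general stress of the tissue moved with the ER genes was not tested.

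The reads recovered from the FPKM steps summed to between 16557977 and 18925455 over the libraries, with 10323 to 10587 genes at 1 FPKM or more. For a transcript of 1 kb the floor of 3 reads is 0.160 to 0.179 FPKM, for counting error alone. Genes that match one of the 32 over at least 200 bases at 95% identity or more held at most 1.02% of its reads. Exons of other genes overlap at most 11.4% of the exon bases of any of the 32 (Ppp1r15b), and the strand setting of the counting is not given in the sources used here. In HFD+Pc against control 16.5% of genes under 2000 bases long were called lower and 8.87% higher. Of those of at least 2000 bases 10.7% were called lower and 11.8% higher. In HFD+Pc against HFD 1.40% of the shorter genes were called lower and 0.452% higher, against 0.176% and 0.105% of the longer. In HFD against control these shares were 7.39% and 4.23%, against 4.78% and 4.73%. The 10 called genes are among the 27 of at least 2000 bases.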

How the data were processed

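The deposited table holds FPKM per gene for 9 liver libraries, per the file headers. RNA was extracted with Trizol and libraries were made with Illumina protocols, per the labels' protocols. The submitters' processing notes name HISAT2 2.0.5 and the genome build GRCm39. The counting tool, annotation and strand setting are not given in the sources used here. A table of gene names gave a symbol to 52093 of the 53700 Ensembl identifiers. The test, for genes reaching 1 FPKM in 3 or more libraries, was limma 3.58.1 in R 4.3.3 (lmFit, eBayes with trend=TRUE and robust=TRUE) on log2(FPKM + 1), with 1 mean per group, all 9 libraries in 1 fit and Benjamini-Hochberg adjustment over 10988 genes. The fit was run on simulated counts with the same spread setting for all genes. That run is no check at the wider spread of genes such as Hyou1 and Manf. Tables and plots used Python 3.11.15, numpy 2.4.6, pandas 2.3.3 and matplotlib 3.10.9.

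The 32 genes and the lists were chosen with earlier results of these data known. From the other ER genes up to 3 per direction and comparison were named, by the lowest adjusted p. Ddit3 and Ppp1r15a were added after their values were seen. At the annotated length, the FPKM of 25345 of 26278 genes above 0 are whole multiples of a step worth 1 read, to a tolerance of 0.02. For the rest a length that made the values whole was searched for, so their fit is no check. Together 25937 genes (98.7%) give back the reads. Limma-voom on these reads, with the library sizes behind the FPKM (97.46% to 108.4% of the read totals) or with plain totals, was added after the data were seen, in place of the planned TMM factors, which were not run. The other alternatives were another pseudocount, other filters, TPM or median ratio scaling, a replicate block, fits of 2 groups alone and fits without each library. GENCODE M21 and BLAST 2.17.0+ gave lengths, overlaps and copies. Promoters came from RefSeq (GRCm38.p6), joined by gene name, so no coordinate was carried between builds. Protein sequences were not used here.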

Additional observations from a re-analysis of the deposited data

How the results depend on the processing

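In each alternative run, no gene of the 31 was called lower. The count called higher in HFD+Pc against control (10) was 7 with no filter, 8 with a minimum of 0.1 FPKM, TPM scaling or 2 groups alone, 11 by limma-voom, 12 by limma-voom with plain read totals, and 7 to 13 without 1 library. In HFD against control (3) it was 1 with 2 groups alone, 0 with no filter, 6 with plain read totals, and 0 to 3 without 1 library. In HFD+Pc against HFD (1) it was 0 with 2 groups alone and with no filter, and 0 to 1 without 1 library. The cause was not tested. Limma-voom with TMM factors was not run. Same-numbered libraries were not seen to deviate together (correlations -0.119 to 0.053). With 3 libraries per group this check cannot exclude a shared batch, and the labels name none. With a replicate block 3 of the 31 were called higher in HFD+Pc against control, Xbp1, Hspa5 and Dnajb9, and 0 in the other comparisons. Over all genes the replicate block gave 1058 calls in HFD+Pc against control, 3 in HFD+Pc against HFD and 232 in HFD against control, against 2538, 69 and 1095 without it.

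Over all genes, HFD against control had 680 calls with 2 groups alone, 725 with a minimum of 0.1 FPKM, 209 with no filter and 332 to 1126 without 1 library. HFD+Pc against HFD had 22, 27, 3 and 5 to 123 under the same settings, 122 by limma-voom, 185 with plain read totals and 113 with TPM scaling. HFD+Pc against control had 1383 with no filter and 1396 to 2644 without 1 library.

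Signs turned in differences that were not called. In HFD+Pc against HFD, TPM scaling gave -0.0249 for Pdia3, -0.0490 for Pdia4, -0.0304 for Pdia6 and -0.0123 for Edem2. Plain read totals gave -0.0411 for Pdia3, -0.0655 for Pdia4, -0.0468 for Pdia6, -0.0289 for Edem2, -0.0102 for P4hb and -7.33e-05 for Canx, and in HFD against control 0.0404 for Ero1lb and 0.0121 for Sel1l. Median ratio scaling gave -0.00307 for Pdia4, the replicate block 0.0115 for Ppp1r15b, 0.0198 for Dnajb11 and -0.0206 for Sec61b, all in HFD+Pc against HFD. TPM scaling gave 0.00572 for Ero1lb in HFD against control.

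Without 1 library, HFD+Pc against HFD ranged from -0.111 to 0.00587 for Ern1, -0.0277 to 0.00169 for Ppp1r15b, -0.128 to 0.114 for Dnajb11, -0.133 to 0.408 for Sdf2l1, -0.0133 to 0.102 for Pdia3, -0.0834 to 0.150 for Pdia4, -0.0898 to 0.196 for Pdia6, -0.0233 to 0.343 for Herpud1 and -0.0374 to 0.138 for Edem2. HFD+Pc against control ranged from -0.0106 to 0.148 for Atf6, -0.198 to 0.0351 for Dnajb11 and -0.0337 to 0.120 for Sel1l. HFD against control ranged from -0.196 to 0.0192 for Dnajb11, -0.220 to 0.0875 for Ero1lb, -0.0846 to 0.168 for Creld2 and -0.0422 to 0.153 for Sec61b. Of the values of single genes under the alternatives, 1544 kept direction and call, 71 lost the call, 14 gained it and 45 turned sign.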
